A study of Mus musculus with 9 samples.

Results

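The 10 genes described here belong to bone morphogenetic protein (BMP) signalling. They are the ligand *Bmp4*, the receptors *Bmpr1a*, *Bmpr2* and *Acvr1*, the signal transducers *Smad1* and *Smad5*, the inhibitory *Smad6*, and the target genes *Id1*, *Id2* and *Id3*. They were chosen by name, and all 10 were found among the 15184 genes of the normalized count table. RNA-Seq of polyA+ RNA was performed on mouse embryonic fibroblasts (MEFs), connective tissue cells grown from mouse embryos. The libraries fall into 3 groups of 3: MEFs with the empty vector (Empty), and the sets titled SAM1 and SAM2, both of which carry the genotype label Hnrnpk_SAM. In the SAM (synergistic activator mediator) system, a guide RNA brings an inactive Cas9 with activator domains to the promoter of a gene, here *Hnrnpk*, which encodes an RNA- and DNA-binding protein. For the activation model, wild-type MEFs were transduced with the lentiviral plasmids lentiMPHv2 and lentiSAMv2 and selected with blasticidin and hygromycin. The labels give no age, sex or strain. They do not say which guide SAM1 or SAM2 carries, whether either is a clone, or whether the 3 libraries of a set came from separate cultures, so that p-values measure the spread between these libraries, which may be technical.

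Values are counts divided by a size factor per library (normalized counts), and they summed to 43909125 to 49041969 per library. Whole reads could be recovered for 8 of the 9 libraries, with totals of 41759636 to 49026626. The targeted gene did not rise. *Hnrnpk* was at 25058, 26098.5 and 26164 normalized counts in Empty, at 24102, 24044.5 and 23619 in SAM1 and at 26608, 26859 and 26221 in SAM2. On the log2 scale the difference from Empty was -0.11 ± 0.027 (SE) in SAM1 (adjusted p = 0.00252, limma) and 0.044 ± 0.027 in SAM2 (adjusted p = 0.159, limma), so every direction given below is that of libraries labelled SAM1 or SAM2 and not that of a measured rise of the *Hnrnpk* transcript. All 10 fibroblast markers looked up were listed, and their summed normalized counts were 1022260 to 1115780 in Empty, 843472 to 903972 in SAM1 and 1146540 to 1185210 in SAM2. Against Empty, 2 of these markers were called higher and 8 lower in SAM1, and 3 were higher and 4 lower in SAM2 (limma). Of all genes, 37.3% were called higher and 36.9% lower in SAM1, and 35.2% higher and 35.3% lower in SAM2. *Dcn*, the gene of the matrix proteoglycan decorin, fell by 2.12 and 2.22 on the log2 scale in SAM1 and SAM2, and *Pdgfra* by 0.60 and 0.81. *Pdgfrb* went the other way and rose by 0.94 and 0.54. *Vim* was higher by 0.55 in SAM1 and lower by 0.077 in SAM2. *Col1a1* was lower by 0.34 in SAM1 and higher by 0.39 in SAM2. *Lum* was lower by 1.98 in SAM1 and was not called in SAM2 (-0.017).

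BMPs are secreted dimers that bring together type I and type II serine/threonine kinase receptors at the cell surface. The type I receptor then phosphorylates the proteins SMAD1, SMAD5 or SMAD9, which enter the nucleus with SMAD4 and act on target genes, among them the Id genes and *Smad6*, whose product feeds back on the pathway. Id proteins hold a helix-loop-helix but no basic DNA-binding region, and so tie up basic helix-loop-helix (bHLH) factors. In mesenchymal cells the pathway is best known for its part in bone and cartilage formation.

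Stretches at the transcription start of the target genes *Id2*, *Id3* and *Smad6* are shown because these members were higher together in the SAM1 libraries. Upstream sequences of RefSeq (build GRCm38.p6) were matched by symbol for 9 of the 10 members; *Id1* was not matched. Within 250 bases before the start, GGCGCC and CAGAC were searched on both strands (the second also as GTCTG); both are short motifs to which Smads are known to bind. The palindrome GTCTAGAC, which joins GTCT to its reverse complement and holds neither of the other motifs, was searched too. Capitals mark the matches, and each sequence is given 5′ to 3′ on the strand of its gene.
*Id2*, chr12:25096093-25096342, minus strand: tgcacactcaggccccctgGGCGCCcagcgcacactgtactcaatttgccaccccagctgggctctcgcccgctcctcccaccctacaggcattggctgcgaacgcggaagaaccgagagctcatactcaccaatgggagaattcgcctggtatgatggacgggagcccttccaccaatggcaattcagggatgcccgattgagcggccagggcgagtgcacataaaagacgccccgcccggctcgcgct
*Id3*, chr4:136143572-136143821, plus strand: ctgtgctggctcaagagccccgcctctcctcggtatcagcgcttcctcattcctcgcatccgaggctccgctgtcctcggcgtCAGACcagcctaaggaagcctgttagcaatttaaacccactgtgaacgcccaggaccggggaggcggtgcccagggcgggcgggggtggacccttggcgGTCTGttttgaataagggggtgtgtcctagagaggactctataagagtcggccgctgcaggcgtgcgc
*Smad6*, chr9:64022045-64022074, minus strand, across the start: gccgccaaagtGTCTAGACtggcatatgat
*Id2* held 1 GGCGCC, 231 bases before its start, and the same letters were in 9.59% of all 32851 upstream sequences of 250 bases and in 16.1% of the 14248 that belong to listed genes. *Id3* held 2 matches to CAGAC or GTCTG, 167 and 68 bases before its start, a motif found in 42.2% of all upstream sequences. In *Smad6* the palindrome GTCTAGAC began 4 bases before the annotated start and ran across it. Among all 32851 RefSeq windows of 300 bases, 70 (0.213%) held this palindrome. These are matches of letters and no binding was measured. GGCGCC also stood before *Bmpr1a* and *Bmpr2*, which moved in opposite directions, and before 1 of the 3 annotated starts of *Smad5*, while CAGAC stood 21 bases before another of these starts. No match was found before *Bmp4*, *Acvr1* or *Smad1*.

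Levels of different genes were set side by side as the normalized count per kb of annotated exon, taking every base that is exon in any annotated transcript. On this scale *Id3* was the highest of the 10 genes and *Bmp4* the lowest in all 3 groups. For *Id2* these bases (3.485 kb) span the whole gene, so its levels and positions below depend on the annotation. *Id3* was at 2057 ± 107 per kb (SD, n = 3) in Empty, 4518 ± 320 in SAM1 and 2305 ± 84.0 in SAM2. *Bmp4* was at 18.2 ± 2.81 per kb in Empty, 23.6 ± 1.81 in SAM1 and 51.5 ± 5.01 in SAM2. In Empty, *Id3* was followed by *Bmpr1a*, *Id1*, *Smad5*, *Smad1*, *Bmpr2*, *Acvr1*, *Id2* and *Smad6*, and of these neighbours only *Id1* (548 to 647 per kb) and *Smad5* (551 to 578 per kb) had overlapping libraries. In SAM1, *Id1* stood next after *Id3*, and *Id2* was at position 4 of 10, with libraries (679.8 to 759.7 per kb) that overlapped those of *Acvr1* (644 to 682.5 per kb). In SAM2, *Id2* was at position 9 of 10 and no neighbours overlapped. Per kb of exon, the levels of the Id genes ran from *Id2* at 156 to *Id3* at 2057 in Empty. The lower end depends on the exon length taken for *Id2*.

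**Figure D1:**
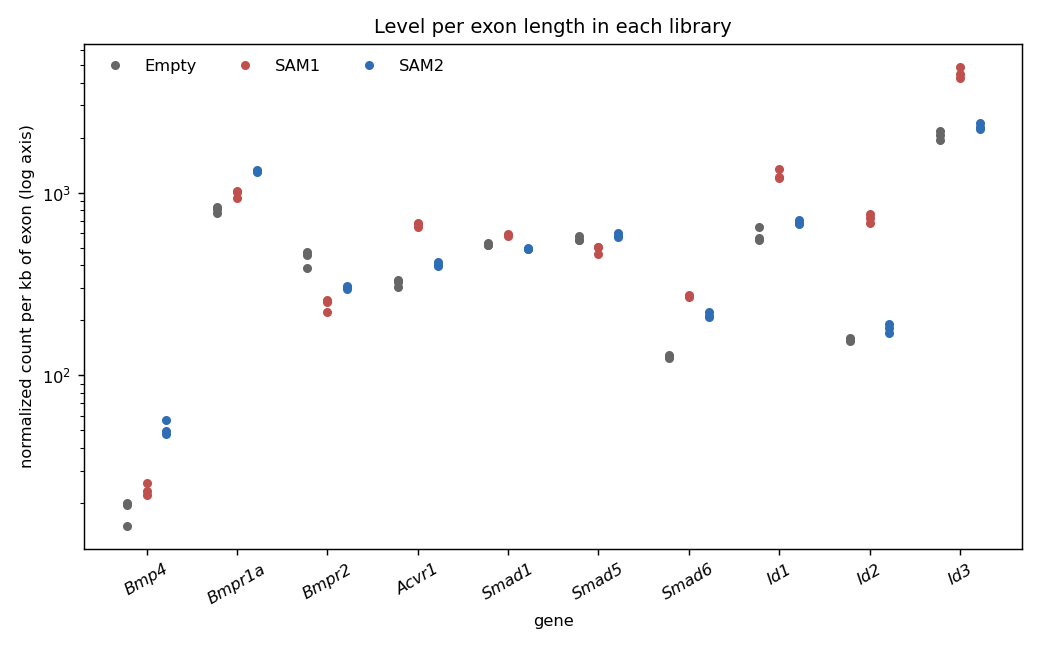
Normalized count per kb of annotated exon (log axis) of the 10 genes, with 1 point per library and the groups Empty, SAM1 and SAM2 in separate colours. *Id3* lies at the top and *Bmp4* at the bottom in every group, and *Id2* is at 156 per kb in Empty, 720.2 in SAM1 and 181 in SAM2 (means).

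In the SAM1 libraries all 3 Id genes were more than 2-fold higher than in Empty, as were *Acvr1* and *Smad6*, whereas in the SAM2 libraries the ligand *Bmp4* had the largest difference and the Id genes were at most 1.17-fold higher than in Empty. Against Empty, 10 of the 10 members passed the test in SAM1 (8 higher, 2 lower), where 74.3% of all genes tested did (37.3% higher, 36.9% lower). In SAM2, 9 of 10 passed (7 higher, 2 lower), where 70.5% of all genes did (35.2% higher, 35.3% lower). The median log2 fold change of the members was 0.72 in SAM1 and 0.22 in SAM2, beside 0.0093 and -0.0015 for all genes. Tests were limma on log2(normalized count + 1) with p-values adjusted over all 15184 genes, and both sets were compared with the same 3 Empty libraries.

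**Figure D2:**
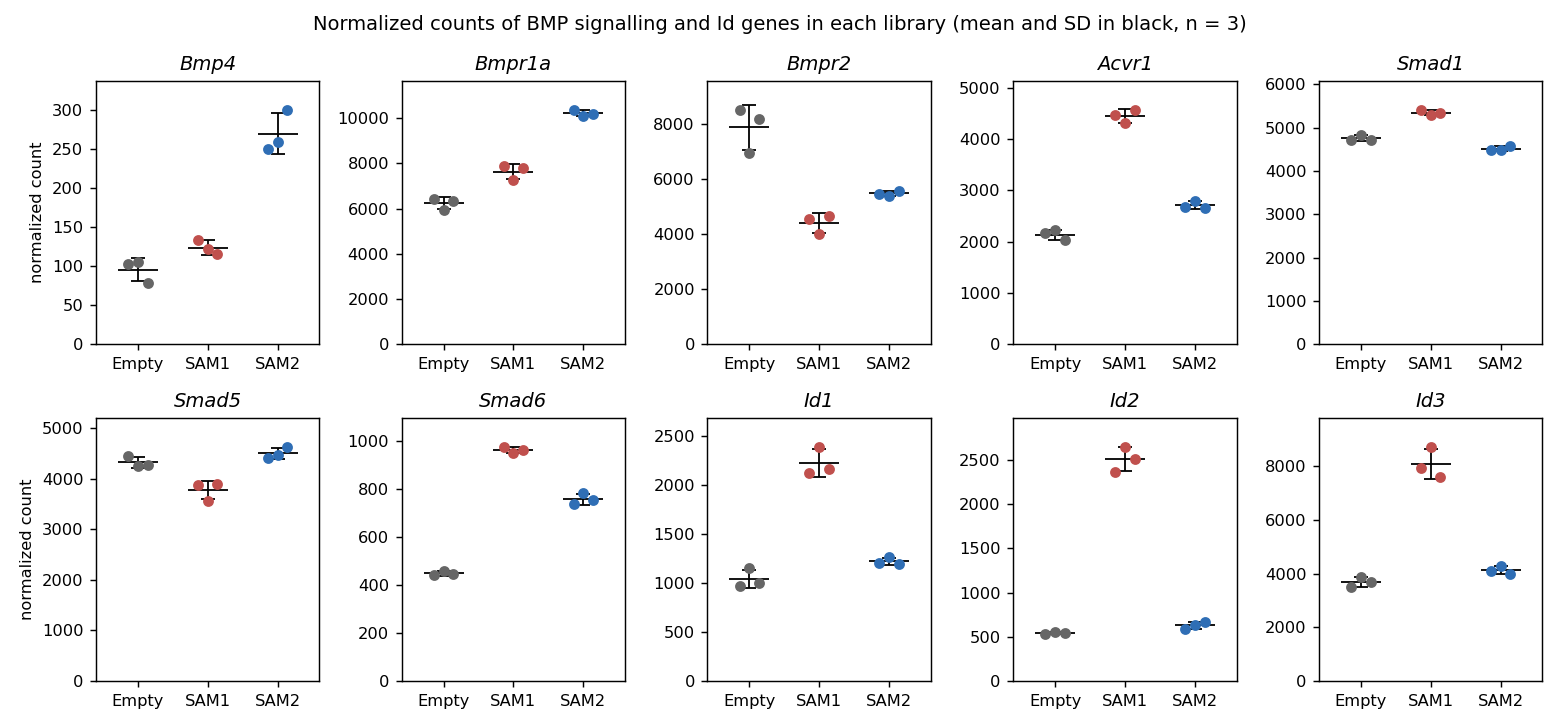
Normalized counts (linear axes from 0) of each gene in the 9 libraries, with 1 point per library and the mean and SD of each group in black (n = 3). SAM1 stands apart for *Id1*, *Id2*, *Id3* and *Acvr1*, SAM2 for *Bmp4* and *Bmpr1a*, and only for *Smad5* does a set (SAM2) overlap Empty.

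*Bmp4*, the ligand of the list, lies on chr14:46620250-46636745 (minus strand, GRCm39). It was at 102, 105 and 78.3 normalized counts in Empty, at 134, 121 and 115 in SAM1 and at 250.2, 259.6 and 299.7 in SAM2. All SAM2 libraries were above all others, and the lowest SAM1 library was above the highest Empty library. SAM2 exceeded Empty by a log2 fold change of 1.50 ± 0.12 (SE) (adjusted p = 1.21e-07, limma), or 2.83-fold between means. In SAM1 it was 0.38 ± 0.12 (adjusted p = 0.0116, limma), and this call was lost without Empty replicate 3 (0.25, adjusted p = 0.0547, limma), without SAM1 replicate 1 (0.32, adjusted p = 0.0507, limma) and with quantile normalization (0.036, adjusted p = 0.793, limma). *Bmp4* was the least sampled member, with 67 to 323 recovered reads per library. Exons of 2 antisense non-coding RNAs overlap 8.62% and 22.5% of its annotated exon bases, and since the strand setting of the counting is not stated, their reads cannot be told apart from those of *Bmp4*.

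*Bmpr1a*, a type I receptor for BMP2 and BMP4, lies on the same chromosome (chr14:34132687-34225379, minus strand). It had 6436, 5961 and 6341 normalized counts in Empty, 7893, 7260.1 and 7779 in SAM1 and 10356, 10111 and 10199 in SAM2. The groups did not overlap and stood in the order Empty, SAM1, SAM2, as for *Bmp4*. Its log2 fold change was 0.29 ± 0.037 in SAM1 (adjusted p = 1.05e-05, limma) and 0.71 ± 0.037 in SAM2 (adjusted p = 1.83e-09, limma). Its exons overlap the antisense gene *Gm17110* over 9.47% of their bases.

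*Bmpr2*, the type II receptor dedicated to BMPs, fell in both sets. Its normalized counts (chr1:59802544-59918173, plus strand) were 8496, 6940.1 and 8185 in Empty, 4564, 4003 and 4654 in SAM1 and 5467, 5385 and 5571 in SAM2. Every SAM library was below every Empty library, and replicate 2 was the lowest library in each of the groups. The log2 fold change was -0.83 ± 0.069 in SAM1 (adjusted p = 1.2e-07, limma), where the mean was 0.56 of that in Empty, and -0.52 ± 0.069 in SAM2 (adjusted p = 1.51e-05, limma).

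*Acvr1* encodes a type I receptor used by several BMPs and known for activating mutations that cause bone to form in soft tissue. This gene of chr2:58278656-58457770 (minus strand) was at normalized counts of 2159.6, 2221 and 2029 in Empty, 4474, 4304.5 and 4562 in SAM1 and 2669, 2798 and 2661 in SAM2. The SAM1 libraries stood highest and the SAM2 libraries between them and Empty, with no overlap. Against Empty, the log2 fold change was 1.06 ± 0.040 in SAM1 (adjusted p = 4.35e-11, limma), or 2.08-fold between means, and 0.34 ± 0.040 in SAM2 (adjusted p = 4.39e-06, limma). The type I receptors *Bmpr1a* and *Acvr1* were thus higher and the type II receptor *Bmpr2* was lower in both sets, except that *Bmpr1a* in SAM1 was below the median of its chromosome (given below).

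*Smad1* and *Smad5*, the transducers that the type I receptors phosphorylate, had the smallest differences of the list. *Smad1* was at 4717, 4842 and 4724 normalized counts in Empty, at 5404, 5306 and 5338 in SAM1 and at 4477, 4488 and 4576 in SAM2. The groups did not overlap, yet the log2 fold change was 0.17 ± 0.027 in SAM1 (adjusted p = 8.33e-05, limma) and -0.077 ± 0.027 in SAM2 (adjusted p = 0.0218, limma). The latter call was lost with the count tests on recovered reads (adjusted p = 0.0769, edgeR, and 0.142, DESeq2), with quantile normalization (-0.052, adjusted p = 0.0983, limma) and on leaving out Empty replicate 2, SAM2 replicate 1 or SAM2 replicate 2 (adjusted p of 0.0625 to 0.076, limma). *Smad5* was at 4459, 4252 and 4265 normalized counts in Empty, at 3880.2, 3564 and 3896 in SAM1 and at 4417, 4463 and 4631 in SAM2. It was lower in all SAM1 libraries (log2 fold change -0.20 ± 0.039, adjusted p = 0.000493, limma). SAM2 overlapped Empty, and there the difference was 0.058 (95% confidence interval -0.026 to 0.14, adjusted p = 0.198, limma).

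*Smad6*, the inhibitory Smad that binds activated BMP receptors and is itself a BMP target, was higher in both sets. In normalized counts this gene of chr9:63860341-63929793 (minus strand) was at 439, 458 and 446 in Empty, 974, 950.0 and 962 in SAM1 and 737, 782 and 752 in SAM2. The libraries of a group lay close together and the groups far apart, with SAM1 highest. The log2 fold change was 1.10 ± 0.045 in SAM1 (adjusted p = 9.2e-11, limma), or 2.15-fold between means, and 0.76 ± 0.045 in SAM2 (adjusted p = 5.83e-09, limma), or 1.69-fold.

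The Id genes rose together in SAM1 and little in SAM2. *Id1* (chr2:152566218-152579544, plus strand) was at 973, 1149 and 1002 normalized counts in Empty, at 2119, 2387 and 2167 in SAM1 and at 1207, 1260.1 and 1189.5 in SAM2. Its SAM1 libraries were far above the rest, while the lowest SAM2 library was only slightly above the highest Empty library. Its log2 fold change was 1.10 ± 0.062 in SAM1 (adjusted p = 2.78e-09, limma) and 0.23 ± 0.062 in SAM2 (adjusted p = 0.00492, limma).

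*Id2* (chr12:25143798-25147282, minus strand), whose upstream sequence with GGCGCC is given above, had the largest difference of any member. It was at 533, 558 and 544 normalized counts in Empty, at 2369, 2647 and 2513 in SAM1 and at 591, 633 and 664 in SAM2. The SAM1 libraries lay far above all others. The log2 fold change was 2.20 ± 0.054 in SAM1 (adjusted p = 6.62e-13, limma), or 4.60-fold between means, and 562 of the 15184 genes had a larger increase. In SAM2 it was 0.21 ± 0.054 (adjusted p = 0.00381, limma) and was not called with quantile normalization (0.12, adjusted p = 0.0572, limma).

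*Id3* (chr4:135870808-135873066, plus strand) was at 3487, 3869 and 3694 normalized counts in Empty, at 7943, 8724 and 7608.5 in SAM1 and at 4092, 4294 and 4000.0 in SAM2. As for *Id1* and *Id2*, no library of SAM1 overlapped another group, and SAM2 lay just above Empty. The log2 fold change was 1.13 ± 0.051 in SAM1 (adjusted p = 2.51e-10, limma) and 0.17 ± 0.051 in SAM2 (adjusted p = 0.0107, limma), the latter with an adjusted p of 0.0538 without SAM2 replicate 2. Annotated antisense non-coding RNAs overlap 13.7% of the exon bases of *Id1*, 11.8% of those of *Id3*, and, as 2 separate RNAs, 13.4% and 22.8% of those of *Id2*, with the same limit as for *Bmp4*.

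Markers of other cell types differed between the groups as well, but not all of them followed the pattern of the Id genes. Of 6 chondrocyte or osteoblast markers, 3 were listed (*Sox9*, *Col2a1* and *Acan*), and their summed normalized counts were 1868 to 1965 in Empty, 12611 to 12986 in SAM1 and 4236 to 4374 in SAM2. All 3 were called higher in both sets, where 37.3% of all genes were in SAM1 and 35.2% in SAM2. Of 5 endothelial markers, 4 were listed, with sums of 301 to 357 in Empty, 4613 to 4988 in SAM1 and 638 to 689 in SAM2. The receptor gene *Kdr* made up most of the sum in SAM1 (4490 to 4877). In SAM1 *Pecam1* was called higher too (log2 fold change 1.14), while *Cdh5* (-0.26) and *Tek* (-0.30) were not called. In SAM2 *Kdr* (1.35) and *Tek* (0.89) were called higher and *Cdh5* (-0.63) lower, and *Pecam1* (-0.10) was not called. All 5 smooth muscle markers were listed, with sums of 56854 to 61008 in Empty, 113117 to 122542 in SAM1 and 95206 to 96899.9 in SAM2. On the log2 scale *Acta2* rose by 1.40 in SAM1 and 1.19 in SAM2, *Cnn1* by 3.78 and 3.38, and *Myh11* by 2.18 and 1.30. *Des* rose more in SAM2 (1.81) than in SAM1 (0.62), and *Tagln* was called in SAM1 only (0.45). The 2 listed epithelial markers of 6 (*Cdh1* and *Krt8*) summed to 42.1 to 50.1 in Empty, 110.1 to 113 in SAM1 and 42.7 to 52.4 in SAM2. The 2 listed macrophage or leukocyte markers of 5 (*Csf1r* and *Cd68*) summed to 529 to 639 in Empty, 753 to 800.1 in SAM1 and 652 to 689 in SAM2. These 2 parted in SAM2, where the log2 fold change was -1.01 for *Csf1r* and 0.60 for *Cd68*. In SAM1 *Cd68* was higher by 0.50 and *Csf1r* was not called (0.16). No listed marker was at 0 in any library, and *Bglap*, *Ibsp*, *Alpl*, *Emcn*, *Epcam*, *Krt5*, *Krt14*, *Krt18*, *Ptprc*, *Adgre1* and *Itgam* were not analysed here. Fewer cells of a type and less RNA per cell cannot be told apart in bulk RNA, and the part of these genes in the results on the members was not tested.

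**Figure D3:**
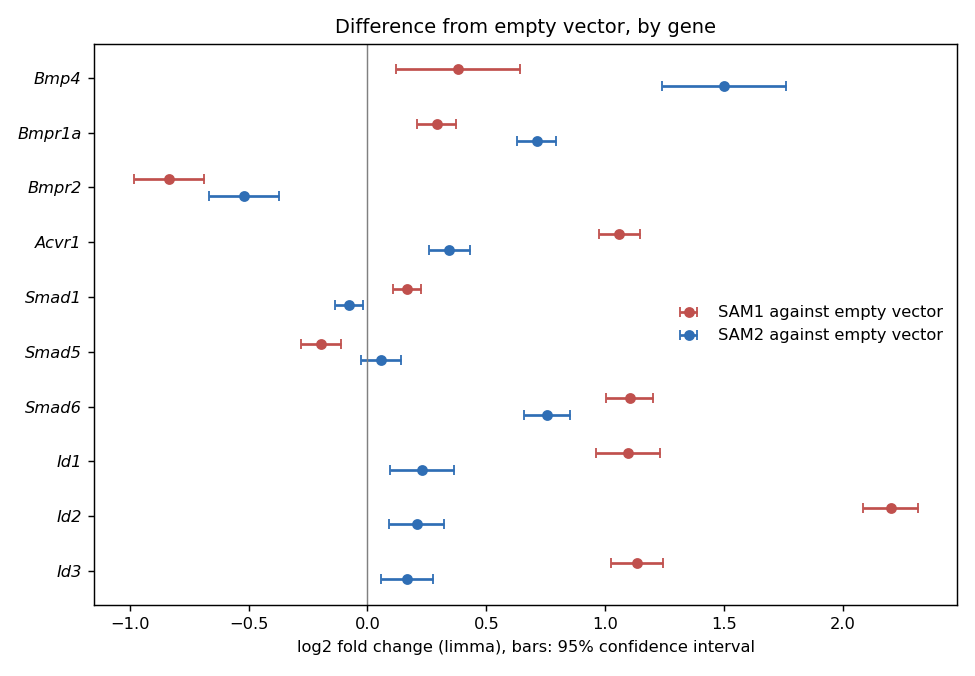
Log2 fold change (limma) of each gene against Empty in SAM1 and SAM2, with bars for the 95% confidence interval and a vertical line at 0. The SAM1 points of *Acvr1*, *Smad6*, *Id1*, *Id2* and *Id3* lie beyond 1 (1.06 to 2.20), the SAM2 point of *Bmp4* lies at 1.50, and both points of *Bmpr2* lie below 0.

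Whether the sets labelled SAM1 and SAM2 differed from each other was tested directly. All 10 members differed (4 higher and 6 lower in SAM2), where 60.3% of all genes did (31.1% higher, 29.2% lower in SAM2). The median log2 difference of the members, SAM2 minus SAM1, was -0.30, beside -0.0075 for all genes. The split followed the members' roles in part. The ligand and its receptors *Bmpr1a* and *Bmpr2* were higher in SAM2, by 1.12 ± 0.12 (SE, adjusted p = 3.98e-06, limma) for *Bmp4*, by 0.42 ± 0.037 (adjusted p = 6.64e-07, limma) for *Bmpr1a* and by 0.32 ± 0.069 (adjusted p = 0.00143, limma) for *Bmpr2*. Targets were lower in SAM2. The log2 difference was -1.99 ± 0.054 for *Id2* (adjusted p = 7.54e-12, limma), where the SAM1 mean was 3.99-fold that of SAM2. It was -0.97 ± 0.051 for *Id3* (adjusted p = 3.92e-09, limma), -0.87 ± 0.062 for *Id1* (adjusted p = 7.94e-08, limma) and -0.35 ± 0.045 for *Smad6* (adjusted p = 2.08e-05, limma). *Acvr1* was lower too (-0.71 ± 0.040, adjusted p = 6.89e-09, limma), and the transducers parted, with *Smad1* lower (-0.25) and *Smad5* higher (0.25) in SAM2. The higher transcript level of the ligand thus lay in the set with the lower level of the Id genes.

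With all 6 libraries labelled Hnrnpk_SAM taken as a single group against the 3 Empty libraries, 6 of 10 members passed the test (5 higher, 1 lower), where 53.9% of all genes did (26.8% higher, 27.0% lower). *Smad6* rose by 0.93 ± 0.11 on the log2 scale (adjusted p = 7.26e-05, limma), and *Bmpr2* fell by 0.68 ± 0.11 (adjusted p = 0.000757, limma). *Bmpr1a* (0.50), *Acvr1* (0.70), *Bmp4* (0.94) and *Id1* (0.66) were called higher as well. *Id2*, whose SAM1 and SAM2 libraries stand furthest apart, was not called although its log2 difference was 1.20 (95% confidence interval -0.069 to 2.48, adjusted p = 0.101, limma), and *Id3* was at 0.65 (adjusted p = 0.0756, limma). This count depended on single libraries, and without Empty replicate 3 it was 3 of 10 (*Bmpr1a*, *Bmpr2* and *Smad6*). The call of *Bmp4* was lost on leaving out any single Empty or SAM2 library (adjusted p of 0.0579 to 0.14, limma), and that of *Id1* on leaving out any single Empty or SAM1 library (adjusted p of 0.0735 to 0.14, limma).

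Genes of some chromosomes differed from Empty as a whole, so each member was set beside its chromosome. The 512 other placed genes of chromosome 14, which holds *Bmp4* and *Bmpr1a*, had a median log2 fold change of 0.53 in SAM1 and 0.57 in SAM2. Relative to this median *Bmp4* stood at -0.15 in SAM1 and at 0.93 in SAM2, and *Bmpr1a* at -0.24 and 0.14. The 50 listed genes within 5 Mb of *Bmp4* had medians of 0.61 in SAM1 and 0.70 in SAM2, with 42 of them called higher in each set. In SAM1, then, *Bmp4* and *Bmpr1a* were above Empty but not above the median of their chromosome. The 62 listed genes within 5 Mb of *Bmpr1a* had lower medians, 0.19 in SAM1 and 0.20 in SAM2. Relative to them *Bmpr1a* stood at 0.099 in SAM1 and at 0.51 in SAM2. *Bmpr2* lies on chromosome 1 among 68 genes within 5 Mb whose medians were -0.50 in SAM1 and -0.43 in SAM2, with 47 and 46 of them called lower. Relative to these neighbours *Bmpr2* stood at -0.34 in SAM1 and at -0.092 in SAM2, and relative to its whole chromosome at -0.62 and -0.34.

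In SAM1 the targets stood apart from their chromosomes. The medians of the other genes on chromosomes 9, 12 and 4, which hold *Smad6*, *Id2* and *Id3*, were -0.16, -0.11 and -0.12 in SAM1. Relative to them *Smad6* was at 1.26, *Id2* at 2.31 and *Id3* at 1.25. In SAM2 these medians were -0.12, -0.20 and -0.16, and relative to them *Smad6* was at 0.88, *Id2* at 0.40 and *Id3* at 0.33. On chromosome 2, with *Acvr1* and *Id1*, the median was 0.27 in SAM1 and 0.16 in SAM2, which left 0.78 for *Acvr1* and 0.82 for *Id1* in SAM1, and 0.19 and 0.074 in SAM2. The 23 genes within 5 Mb of *Acvr1* had medians of 0.48 in SAM1 and 0.14 in SAM2. Relative to them *Acvr1* stood at 0.58 and 0.21. The number of copies of a chromosome was not measured in these libraries, and its part in the levels was not tested.

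**Figure D4:**
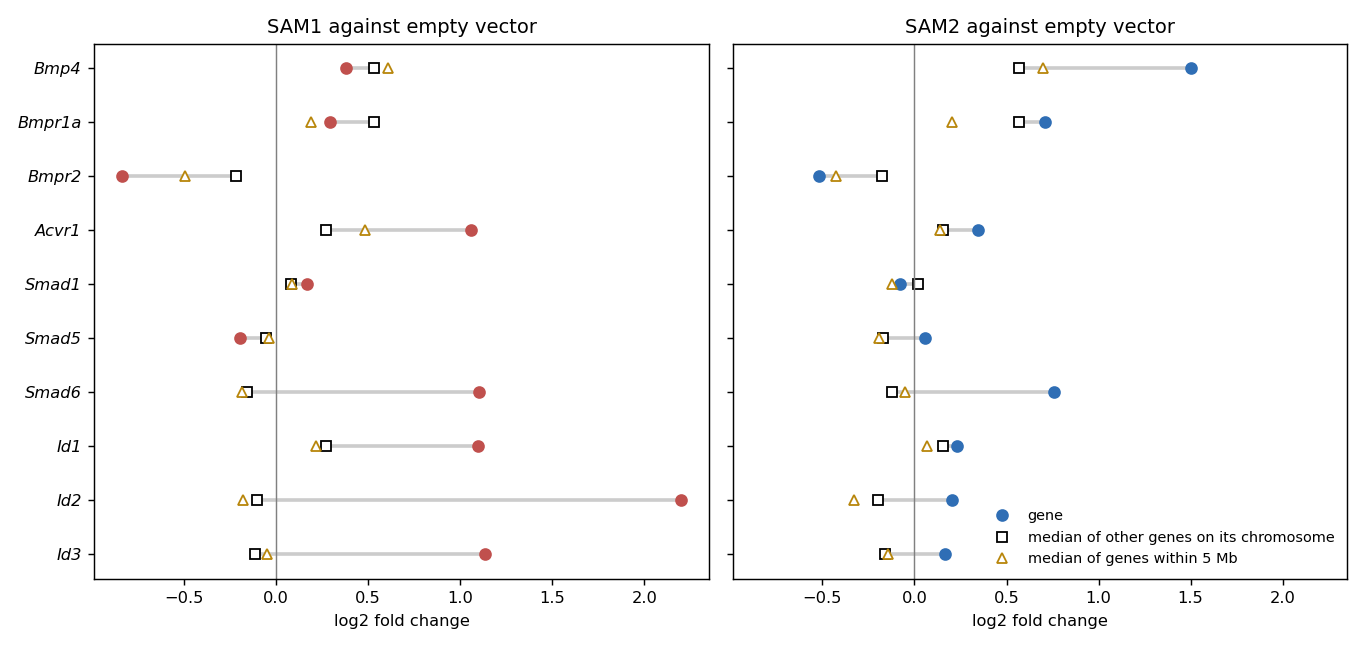
Log2 fold change against Empty of each gene (filled circle), median of the other genes on its chromosome (square) and median of the genes within 5 Mb (triangle), for SAM1 on the left and SAM2 on the right. *Bmp4* and *Bmpr1a* lie left of their chromosome's median (0.53) in SAM1, whereas *Smad6*, *Id2* and *Id3* lie right of medians that are below 0 in both sets.

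Of 64 further genes named for roles in the pathway, 45 were analysed here. In SAM1, 22 of the 45 were called higher and 18 lower, and in SAM2, 19 higher and 20 lower, so that 88.9% and 86.7% passed the test, where 74.3% and 70.5% of all genes did. Their median log2 fold change was 0.089 in SAM1 and -0.030 in SAM2, beside 0.0093 and -0.0015 for all genes. Between the sets 14 were higher and 19 lower in SAM2 (73.3% called, beside 60.3% of all genes), and with all SAM libraries pooled 17 were higher and 15 lower than in Empty (71.1%, beside 53.9%). The counts by role that follow rest on 3 to 13 genes each and stand beside shares over all genes of 37.3% higher and 36.9% lower in SAM1, and 35.2% higher and 35.3% lower in SAM2.

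Among the other ligands, 3 of 13 were analysed, with 1 higher and 2 lower in SAM1 and 1 higher and 1 lower in SAM2. *Bmp6* was at 97.2 to 109.8 normalized counts in Empty, 133 to 152 in SAM1 and 284 to 315 in SAM2 (log2 fold change 0.44 ± 0.087 and 1.53 ± 0.087, adjusted p = 0.000446 and 4.13e-09, limma). It shared with *Bmp4* the order Empty, SAM1, SAM2. *Bmp3*, which encodes a BMP that opposes others, was at 40.9 to 44.1 in Empty but at 3.95 to 8.79 in SAM1 and 1.98 to 3.71 in SAM2, a few reads per library (adjusted p = 5.53e-06 and 5.23e-07, limma).

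Of 9 other receptors and co-receptors, 8 were analysed, with 5 higher and 2 lower in SAM1 and 4 higher and 3 lower in SAM2. *Acvrl1*, a type I receptor known from endothelium, rose from 261 to 269 normalized counts in Empty to 1079 to 1146 in SAM1 and 873 to 899 in SAM2 (log2 fold change 2.08 ± 0.046 and 1.74 ± 0.046, adjusted p = 2.61e-13 and 2.43e-12, limma). *Bmpr1b*, the other BMP type I receptor, rose by 1.38 and 0.86. The co-receptor gene *Rgma* fell by 1.82 and 1.23, and the type II receptor gene *Acvr2b* fell by 1.28 and 0.84. *Acvr2a*, the other type II receptor, did not pass the test in either set (-0.047 and 0.10).

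Secreted antagonists and modulators went both ways, with 5 of 13 higher and 7 lower in SAM1, and 5 higher and 6 lower in SAM2. *Nog*, which encodes the BMP trap noggin, was at 122 to 174 normalized counts in Empty, 23.7 to 38.5 in SAM1 and 33.4 to 47.5 in SAM2. Its log2 fold change was -2.18 ± 0.20 in SAM1 and -1.86 ± 0.20 in SAM2 (adjusted p = 4.02e-07 and 2.38e-06, limma). *Grem1*, which encodes a secreted protein that binds BMPs, parted the sets. It was at 38862 to 40388 in Empty, 42793 to 44736 in SAM1 and 13210.2 to 13572 in SAM2 (log2 fold change 0.15 and -1.57, adjusted p = 0.000338 and 6.56e-14, limma). *Fst*, the gene of the activin and BMP binder follistatin, was higher by 2.31 in SAM1 and by 0.30 in SAM2. *Bmper* was lower by about the same amount in both (-1.04 and -1.14), and *Bmp1*, the gene of a protease that cuts the antagonist chordin and lies on chromosome 14, was higher in both (1.50 and 1.52).

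Of 11 other intracellular components, 4 were higher and 5 lower in SAM1, and 3 higher and 7 lower in SAM2. *Smad9*, the third of the Smads that BMP receptors phosphorylate, differed far more than *Smad1* and *Smad5*. It was at 126 to 155 normalized counts in Empty, 913 to 1049 in SAM1 and 394 to 425 in SAM2 (log2 fold change 2.79 ± 0.080 and 1.56 ± 0.080, adjusted p = 3.14e-12 and 1.4e-09, limma). The shared partner *Smad4* was slightly lower (-0.18 and -0.12), and the inhibitory *Smad7* was higher in SAM1 (0.75) and lower in SAM2 (-0.29).

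Of 10 other genes known as BMP targets, 7 were analysed, with 6 higher and 1 lower in SAM1, and 4 higher and 2 lower in SAM2; between the sets none was higher in SAM2 and 6 were lower, where 31.1% of all genes were higher and 29.2% lower. *Id4*, the fourth Id gene, was at 352 to 383 normalized counts in Empty, 1539.5 to 1564 in SAM1 and 329 to 350.1 in SAM2 (log2 fold change 2.07 ± 0.050 and -0.12 ± 0.050, adjusted p = 6.36e-13 and 0.0413, limma). As for *Id2*, the SAM1 libraries stood far above both other groups. *Atoh8* was at 15.3 to 29.4 in Empty, 296 to 334 in SAM1 and 46.4 to 62.3 in SAM2, and *Gata2* rose by 1.21 and 0.69. *Sp7*, the gene of the osteoblast factor osterix, was at 1.02 to 3.15 in Empty, 31.3 to 38.5 in SAM1 and 5.57 to 9.89 in SAM2 (adjusted p = 6.4e-07 and 0.00237, limma). *Dlx3* went the other way, with 15.2 to 24.6 in Empty, 9.49 to 13.7 in SAM1 and 1.85 to 3.71 in SAM2 (adjusted p = 0.0482 and 1.32e-05, limma).

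The bHLH genes whose proteins pair with Id proteins differed by less than the Id genes did in SAM1. *Tcf3* fell by 0.17 and 0.20 on the log2 scale in SAM1 and SAM2, *Tcf4* was higher by 0.089 and 0.35, and *Tcf12* was at -0.014 in SAM1 (adjusted p = 0.821, limma) and higher by 0.23 in SAM2.

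**Figure D5:**
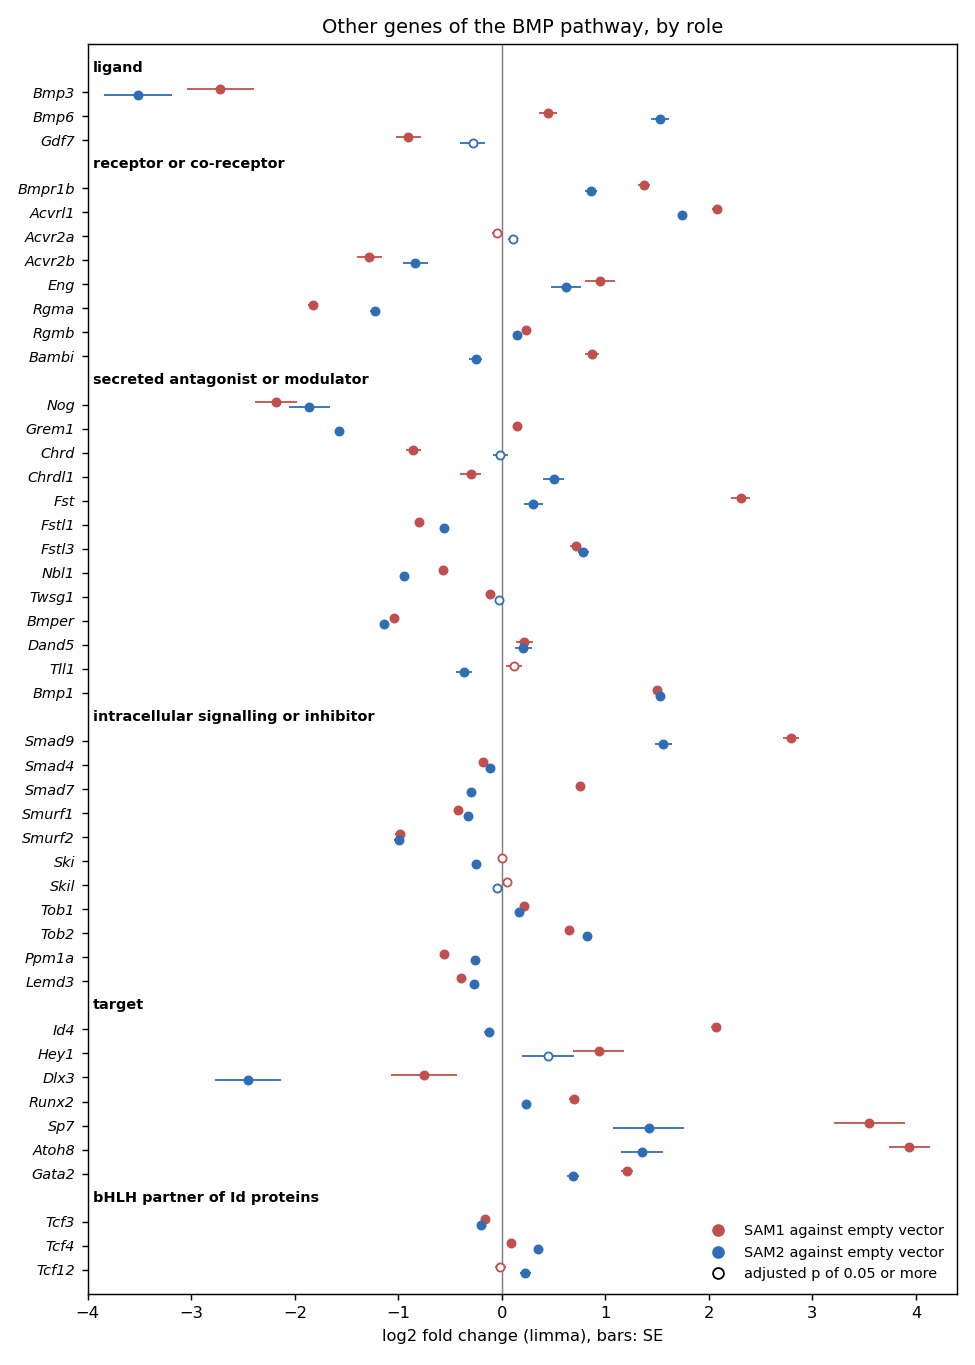
Log2 fold change (limma, bars for SE) against Empty of the 45 other genes of the pathway in SAM1 and SAM2, grouped by role, with open symbols for an adjusted p of 0.05 or more. The targets *Id4*, *Sp7* and *Atoh8* lie further right in SAM1 than in SAM2, *Grem1* lies at 0.15 in SAM1 and -1.57 in SAM2, and *Nog* and *Bmp3* lie left of 0 in both.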

How the data were processed

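Per the study's methods, the authors checked reads with FastQC 0.11.0, aligned them with TopHat2 to GRCm39 and counted genes with HTSeq. The strand setting of the counting is not stated in the sources used here. The deposited values, of unit signal, are counts per gene divided by a DESeq2 size factor, for genes above 10 in part of the libraries. The members and gene lists were chosen with earlier results of these data known, and 1 gene of the lists is not reported here.

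From these values, log2(value + 1) was fitted with limma 3.58.1 (R 4.3.3, empirical Bayes with trend). The 6 libraries labelled Hnrnpk_SAM were compared with 3 Empty libraries in a 2-group fit, and SAM1, SAM2 and Empty in a 3-group fit, two-sided, with Benjamini-Hochberg adjustment over 15184 genes and a threshold of 0.05. This scale understates fold changes of low genes. The fit was run on simulated data with 200 genes changed in SAM1 only and the same spread set for all genes. This checks the code, and does not show how the fit behaves with as many called genes as here. In 8 libraries 100% of values were whole reads within 0.1 read, and edgeR 4.0.16 and DESeq2 1.42.0 were run on these 8 as alternatives. Text names all members, *Hnrnpk*, and pathway genes past the threshold with a log2 fold change of at least 1 in size in SAM1 or SAM2 (at most 6 per role), besides *Smad4*, *Smad7*, *Smad9* and *Id4*; others named with values were chosen after these were seen. Positions and exon lengths came from a GENCODE annotation of GRCm39, of a later release than the one the authors counted on.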

Additional observations from a re-analysis of the deposited data

Results flagged for a closer look

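All 10 genes differed between the sets labelled SAM2 and SAM1 in the direct test (limma, adjusted over all genes), which is why they are listed here, and 60.3% of all genes did so too. The log2 difference, SAM2 minus SAM1, was 1.12 for *Bmp4*, 0.42 for *Bmpr1a*, 0.32 for *Bmpr2* and 0.25 for *Smad5*, which were higher in SAM2. It was -1.99 for *Id2*, -0.97 for *Id3*, -0.87 for *Id1*, -0.71 for *Acvr1*, -0.35 for *Smad6* and -0.25 for *Smad1*, which were lower in SAM2. No library of SAM1 overlapped SAM2 for any of the 10 genes.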

How the results depend on the processing

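The number of members called held within 1.5 times in each of the 4 comparisons under other pseudocounts (0.5 and 5), stricter filters, quantile normalization, TMM scaling, edgeR and DESeq2. The exception was the pooled comparison, where leaving out 1 library gave 3 to 6 members called instead of 6, with 3 without Empty replicate 3. There, edgeR called 7, DESeq2 8 and the mean of both sets in the 3-group fit 8. *Id2* (1.70, adjusted p = 0.0281) and *Id3* (0.82, adjusted p = 0.0324) passed in edgeR, which lacked SAM2 replicate 1. Pooled *Bmp4* was not called by edgeR (adjusted p = 0.0544) or with quantile normalization (0.162), nor *Id1* with TMM scaling (0.0506) or quantile normalization (0.0752). The cause was not tested. Relative to the median of their chromosome, the sign turned for *Bmpr1a* pooled (-0.046) and for *Bmp4* (-0.15) and *Bmpr1a* (-0.24) in SAM1.

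Same-numbered libraries did not pair by the rule used, since 3 of 9 pairs had a correlation of deviations over 0.1 (0.00237 to 0.117), although 8 of 9 libraries correlated best with their own number. With the replicate number as a block, 4 members were called in the pooled comparison (*Bmp4* at adjusted p = 0.0823 and *Id1* at 0.0941 were not), and 10, 9 and 10 in SAM1, in SAM2 and between the sets, as without the block. *Bmp4* had 67 to 323 reads a library, the fewest of the members.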
